A study of Mus musculus with 9 samples.

Results

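Chromatin in type 2 dendritic cells was examined here through the genes of the enzymes that write or erase marks on histones and DNA. All gene symbols that begin with Kdm, Kmt2, Kmt5, Hdac, Sirt, Dnmt, Ezh, Ehmt, Suv39h, Setd or Prmt were taken, together with Tet1, Tet2 and Tet3. The rule found 74 of the 24054 genes in the count files, and it used names only, no measured value. No symbol beginning with Kmt5 was found, but Setd8 is the gene now named Kmt5a, and Prmt10 is now Prmt9. The 74 members were 18 Kdm, 11 Hdac, 11 Setd, 8 Prmt, 8 Dnmt and Tet, 7 Sirt, 6 Ezh, Ehmt and Suv39h, and 5 Kmt2 genes. One of the 8 Dnmt and Tet symbols, Dnmt3aos, is a non-coding RNA antisense to Dnmt3a. In a reference annotation, which may differ from that behind the counts, its exons share no base with those of Dnmt3a. Counts do not use strand.

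The 9 libraries were made from C57BL/6 mice carrying Clec9a-Cre on both alleles, with Cre knocked into the Clec9a locus, and Rosa-tdTomato on both alleles, so that the groups share all of these alleles. Splenic cells that were live, single, without autofluorescence and positive for MHCII, CD11c and CD11b were sorted by the fluorescent protein TOMATO. It stays on once Cre, made where Clec9a is expressed, has recombined the reporter in a cell or its ancestors. The study describes that some precursors can escape this labelling. It reports that labelling of young cDC2 was also low with Cre on both alleles and with another reporter. In its young mice, splenic precursors were labelled more than cDC2, and sorted TOM- cells stayed negative in culture. From these and other fate-mapping data it proposes that TOM- DC2 come from progenitors without Clec9a expression. Whether the absence of TOMATO marks another origin in the libraries used here was not tested. The 3 groups, of 3 libraries each, were TOM+ cDC2 at postnatal day 8 (young TOM+ cDC2), TOM- DC2 at postnatal day 8 (young TOM- DC2), and TOM+ cDC2 of adults, aged 9 weeks in 1 library and 8 weeks in the others. Young spleens were pooled for each sort. Libraries are named by the number in their deposited name (81, 91 and 92 in both young groups, 91, 92 and 95 in adults), the meaning of which is not stated. The study asked with these libraries whether origin or age sets the expression programme of these cells. TOM- cells are defined only by the absence of a label, and adult TOM- cells are not analysed here, so that age was compared only within TOM+ cells.

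Histone methyltransferases (Kmt2, Ezh, Ehmt, Suv39h, Setd) place methyl groups on lysines, Kdm demethylases remove them, and Prmt enzymes methylate arginines. Hdac and Sirt deacetylases take acetyl groups off histones and many other proteins, and Dnmt enzymes methylate cytosines, which Tet enzymes oxidise on the way to demethylation. In dendritic cells such enzymes are known to act in the choice of lineage, in the cell cycle of progenitors and in the inducible transcription of cytokine genes.

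Each library held 12783252 to 22809401 reads on annotated genes. The members took 0.458% to 0.530% of these. All 13 cDC2 markers checked, Itgax, H2-Ab1, Sirpa and Zbtb46 among them, were above 0 in every library, the lowest value being 9.22 TPM for Clec10a in an adult library. Xist was listed at 0 TPM in all 9 libraries, and the Y-linked genes Ddx3y, Eif2s3y and Uty were read in all 9. Reads outside annotated genes made up 8.84% to 11.8% of reads in young TOM+ cDC2, 10.7% to 12.8% in young TOM- DC2 and 15.2% to 17.1% in adults. Erythroid marker genes summed to 1550 TPM in young TOM- DC2 library 81 and to 1.48 to 183 TPM in the other libraries. Both young libraries numbered 81 stood apart from their groups, with a chi-square per gene of 20.9 to 23.0 against the other libraries of the group, where the others differed by 8.74 and 11.1. Adult library 95 also stood apart, with 20.4 and 16.9 against the others, which differed by 11.7. Differences are given as log2FC of the first group named minus the second, with SE, from edgeR's quasi-likelihood test with TMM normalization on all 9 libraries. A member passed at a Benjamini-Hochberg adjusted p (padj) under 0.05 over the 14452 tested genes, and was called at a log2FC beyond 1 in addition. Of members that passed, significance is said to be lost where padj was no longer under 0.05. Per-library values beside a log2FC are normalised CPM, that is read counts scaled to a common library size after the same normalization, in the order of library numbers, and levels of different genes are compared in TPM, which divides by length. In sorted cells in bulk, fewer cells of a type and less RNA per cell cannot be told apart.

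Of the 74 members, 73 reached the minimum mean count of 1 (Prmt8 did not, with 1 read in all) and 68 had a mean count of at least 50. Their mean TPM over the 9 libraries ran from 0.0844 to 213, with a median of 21.0 against 11.5 over all tested genes. The arginine methyltransferase Prmt1 stood highest (213 TPM), followed by the class I deacetylase Hdac1 (196), the nuclear sirtuin Sirt7 (147), and the class I deacetylases Hdac2 (92) and Hdac3 (77.9). RSEM assigned 4.56 times as many reads to Hdac1 as STAR counted on it, and the same ratio was 1.94 for Setd3, 1.51 for Kdm2b and 1.24 for Setd8, so that the levels of these genes are uncertain. At the low end, 5 tested members were under 1 TPM: Tet1 (0.774), Hdac11 (0.743), Dnmt3aos (0.652), Kdm4d (0.161) and Dnmt3l (0.0844). Setd4 also had a mean count below 50 (49.9), while Tet1 did not. The summed TPM of all members was 2128 to 2313 in young TOM+ cDC2, 2169 to 2367 in young TOM- DC2 and 2008 to 2108 in adults. The summed TPM of the Prmt family was 381 to 435 and 351 to 409 in the young groups and 243 to 257 in adults, without overlap, and that of the Hdac family was 480 to 522 and 492 to 543 against 422 to 426. Kdm genes together were at 372 to 420 and 399 to 444 TPM in the young groups and 448 to 491 TPM in adults, and Sirt genes at 237 to 256 TPM, 249 to 285 TPM and 292 to 315 TPM. The order of the Sirt sums rests on Sirt7, without which they were 117 to 130 TPM in young TOM+ cDC2, 133 to 146 TPM in young TOM- DC2 and 111 to 116 TPM in adults. Without Hdac1, of uncertain level, the Hdac sums were 286 to 311, 275 to 309 and 257 to 267 TPM. Kdm6b was at 37.8 to 43.0 TPM in young TOM+ cDC2, 42.4 to 54.1 TPM in young TOM- DC2 and 65.2 to 73.7 TPM in adults. Without Kdm6b, the Kdm sum of young TOM- library 81 exceeded that of adult library 91.

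**Figure D1:**
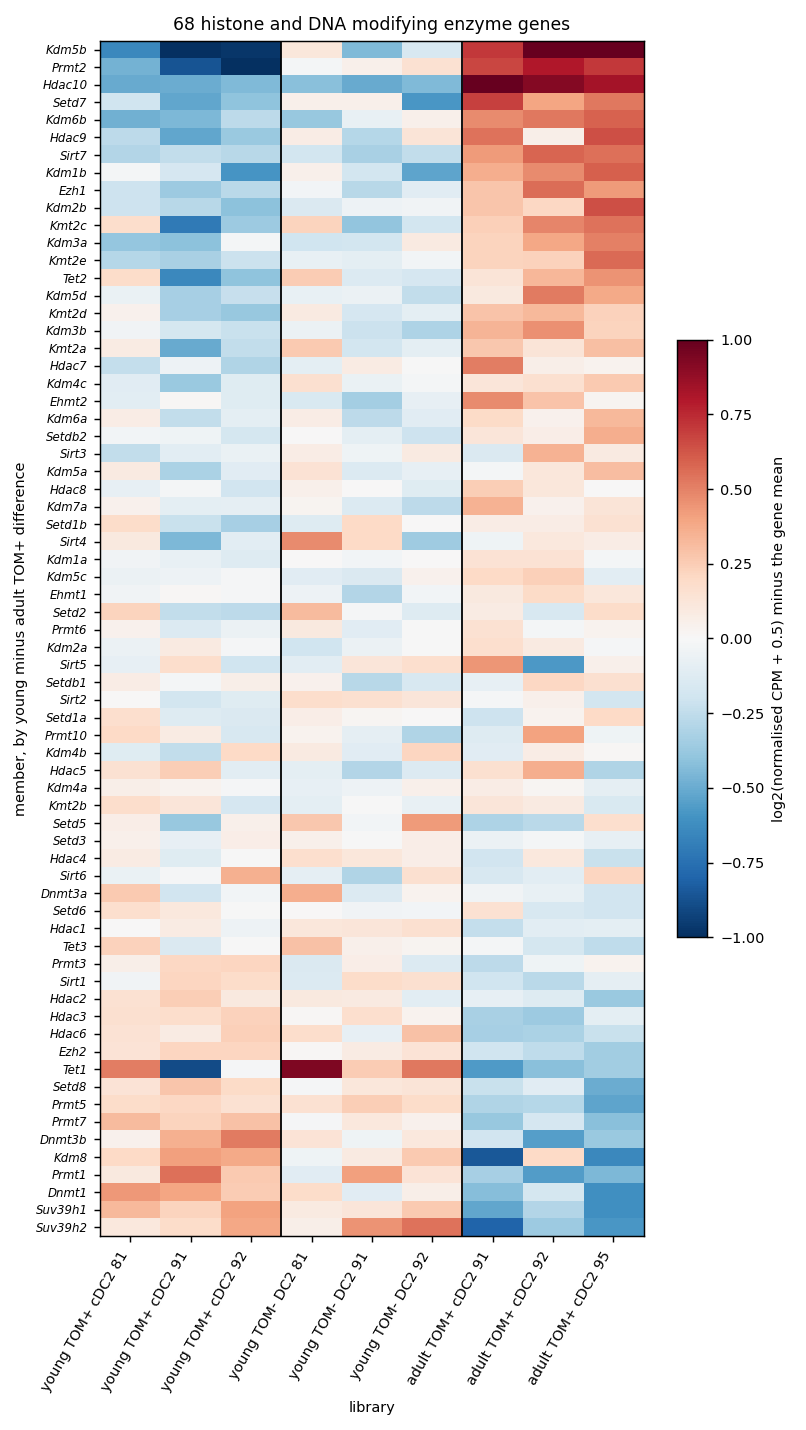
Heat map of the 68 members with a mean count of at least 50 (rows) in the 9 libraries (columns). Colour is log2(normalised CPM + 0.5) minus the mean of the gene and stops at 1 in each direction, and rows are ordered by the difference between young and adult TOM+ cDC2. Adult libraries stand apart from both young groups at the top (Kdm5b, Prmt2, Hdac10) and at the bottom (Suv39h2, Suv39h1, Dnmt1), while members in the middle differ little between groups.

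Age was compared first within TOM+ cDC2. In young TOM+ cDC2, 14 of 73 members were higher than in adult TOM+ cDC2 and 23 were lower, where 21% and 19.5% of all tested genes passed in these directions, and 36 members did not pass. The higher genes included the maintenance DNA methyltransferase Dnmt1, the H3K9 methyltransferases Suv39h1 and Suv39h2, the H3K27 methyltransferase Ezh2, and the arginine methyltransferases Prmt1, Prmt5 and Prmt7. The lower genes included 9 of 18 Kdm demethylases and 4 of 5 Kmt2 methyltransferases, together with Hdac10, Sirt7, Prmt2, Setd7 and Ezh1. Called at more than 2-fold were 4 members, all lower in young TOM+ cDC2 (Kdm5b, Hdac10, Prmt2 and Kdm4d), and none was higher, against 6.86% and 5.96% of all genes in these directions. The median log2FC of the members was -0.12, beside 0.05 over all tested genes, and the median fold of the 37 that passed was 1.56, beside 1.60 over all genes that passed.

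The split of these results depends on how libraries are scaled. TMM factors were 1.025 to 1.085 in the young libraries and 0.894 to 0.928 in adults. With library totals in place of TMM, the median log2FC of all genes moved from 0.05 to 0.25, by 0.196, and 21 members were higher and 14 lower in young TOM+ cDC2, where 33.1% and 12.6% of all genes passed. In limma on log2(TPM + 1), 16 members were higher and 12 lower. There the median log2FC of all genes was 0.098, and the share of all genes that passed was not counted. No member that passed with TMM changed direction under any setting tried, and both sets of log2FC are drawn in the plot of members that passed. Under library totals 9 of the 37 lost significance. Conversely, 7 members passed there and not with TMM, all higher in young TOM+ cDC2: Hdac1 (log2FC 0.36), Hdac4 (0.29), Kdm4a (0.23), Prmt3 (0.44), Setd3 (0.27), Setd6 (0.35) and Tet3 (0.39), with padj of 0.00361 to 0.0405.

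Calls also moved when both libraries numbered 81 were left out: 14 members were higher and 27 lower in young TOM+ cDC2 than in adults, and 12 higher and 25 lower in young TOM- DC2. The share of all genes that passed in this fit was not counted, so that these counts cannot be set against all genes. Setd7 was then called in TOM+ cells (log2FC -1.05, padj = 0.000854), and Suv39h2 (1.09, padj = 0.000212) and Kdm4d (-3.41, padj = 0.0289) in young TOM- DC2 against adults, where Tet1 no longer was. With the replicate block described below, 15 members were higher and 29 lower in young TOM+ cDC2 than in adults, beside 24.6% and 23.3% of all genes. For young TOM- DC2 against adults the block gave 14 and 29, beside 23.6% and 21.7%. Adult library 95 carries no contrast in this fit and adult libraries did not pair with young ones, so that it serves across age only as an alternative fit.

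Against the same adult libraries, 12 of 73 members were higher in young TOM- DC2 and 19 were lower, with 19.4% and 16.9% of all tested genes passing. Called were Tet1, higher in young TOM- DC2, and Hdac10 and Kdm5b, lower, beside 6.5% and 4.78% of all genes. The median log2FC of the members was -0.08, beside 0.07 over all genes. With library totals these numbers became 22 higher and 8 lower, with 34.7% and 10.2% of all genes. Since the adult libraries are shared by both comparisons, and age and origin differ together in this one, the values for young TOM- DC2 are given only beside those for TOM+ cells.

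**Figure D2:**
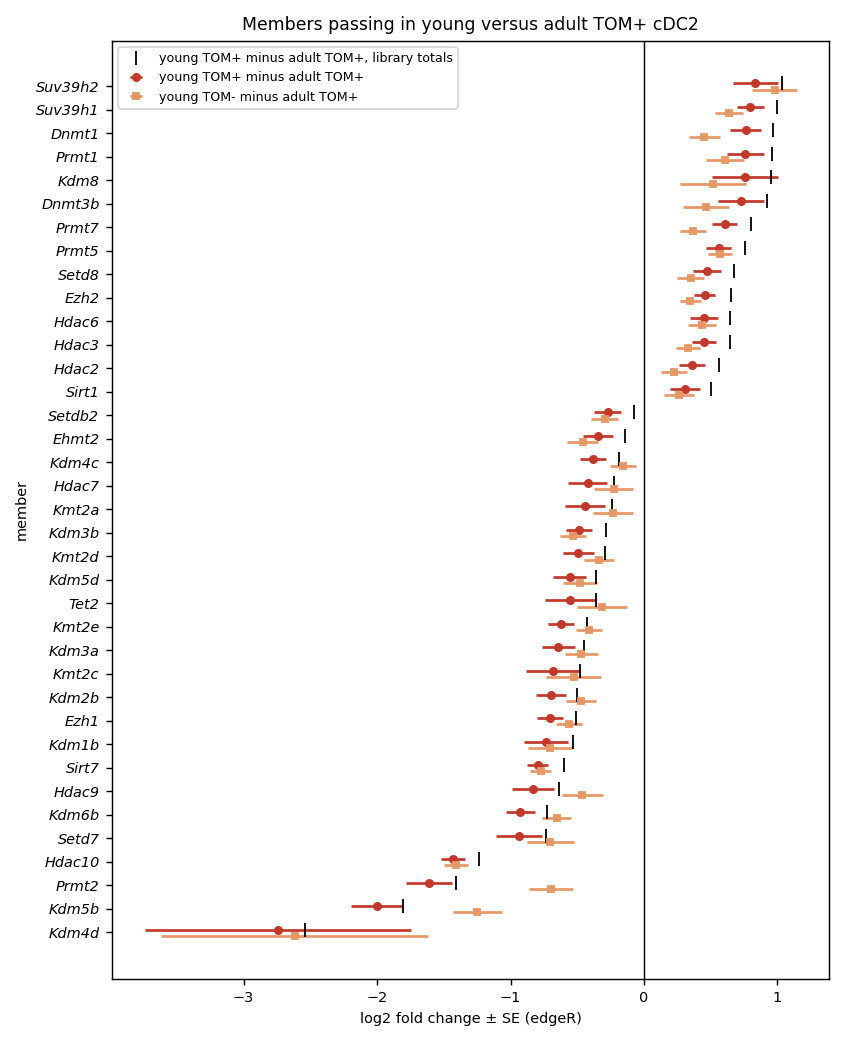
Log2FC with SE for the 37 members that passed between young and adult TOM+ cDC2 (circles), the same members in young TOM- DC2 minus the same adult libraries (squares), and the first comparison with library totals in place of TMM (vertical ticks). Values right of 0 are higher in young mice. Kdm4d has the widest error, with an SE of 1.00, and the ticks lie to the right of the circles throughout.

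Kdm5b, at chr1:134560178-134632878 in mm10, encodes a demethylase of H3K4 di- and trimethylation. It was at 11.9, 8.92 and 9.43 normalised CPM in young TOM+ cDC2, 20.5, 13.8 and 16.9 in young TOM- DC2 and 31.3, 41 and 49.1 in adult TOM+ cDC2. The 3 groups did not overlap, and adult libraries were highest. The log2FC was -2.0 ± 0.19 (SE, padj = 7.37e-06) for TOM+ cells across age and -1.25 ± 0.18 (SE, padj = 0.000228) for young TOM- DC2 against adults.

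Prmt2, at chr10:76207226-76237865, encodes an arginine methyltransferase that also acts as a coactivator of nuclear receptors. Its values were 4.86, 3.59 and 3.18 normalised CPM in young TOM+ cDC2, 6.85, 7.21 and 7.79 in young TOM- DC2 and 11.4, 12.5 and 11.7 in adults, again without overlap between groups. The log2FC across age was -1.61 ± 0.17 (SE, padj = 1.82e-05) in TOM+ cells, and -0.70 ± 0.16 (SE, padj = 0.00549) for young TOM- DC2 against adults.

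Hdac10, at chr15:89123303-89128700, encodes a class IIb deacetylase with activity on polyamines. It was at 29, 29.1 and 30.3 normalised CPM in young TOM+ cDC2, 30.7, 28.9 and 30.2 in young TOM- DC2 and 86.4, 78.2 and 73.9 in adults. Both young groups lay on top of each other and far below the adult libraries. This was the smallest padj of all members, with a log2FC of -1.43 ± 0.09 (SE, padj = 4.06e-07) in TOM+ cells and -1.41 ± 0.09 (SE, padj = 5.29e-07) for TOM- DC2 against adults.

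Kdm4d, a H3K9 demethylase gene at chr9:14462548-14500522, was called on few reads. It had 4, 0 and 1 counts in young TOM+ cDC2, 3, 2 and 0 in young TOM- DC2 and 9, 10 and 4 in adults. The log2FC in TOM+ cells was -2.74 ± 1.00 (SE, padj = 0.0444), and significance was lost without young TOM+ library 91 or 92 or adult library 91 or 92 (padj = 0.109 to 0.126), with library totals, in limma on TPM and on RSEM's expected counts. Tet1, a cytosine dioxygenase gene at chr10:62804570-62887469, was at 8.76, 2.99 and 5.95 normalised CPM in young TOM+ cDC2, 12, 7.27 and 8.89 in young TOM- DC2 and 3.90, 4.37 and 4.62 in adults. Young TOM- DC2 and adults did not overlap (log2FC 1.12 ± 0.32 SE, padj = 0.0164), and the spread within young TOM+ cDC2 was wide. Significance was lost without TOM- library 81 or adult library 91 (padj = 0.0513 and 0.0573), and the log2FC of young against adult TOM+ cDC2 was 0.46 ± 0.33 (SE, padj = 0.28).

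**Figure D3:**
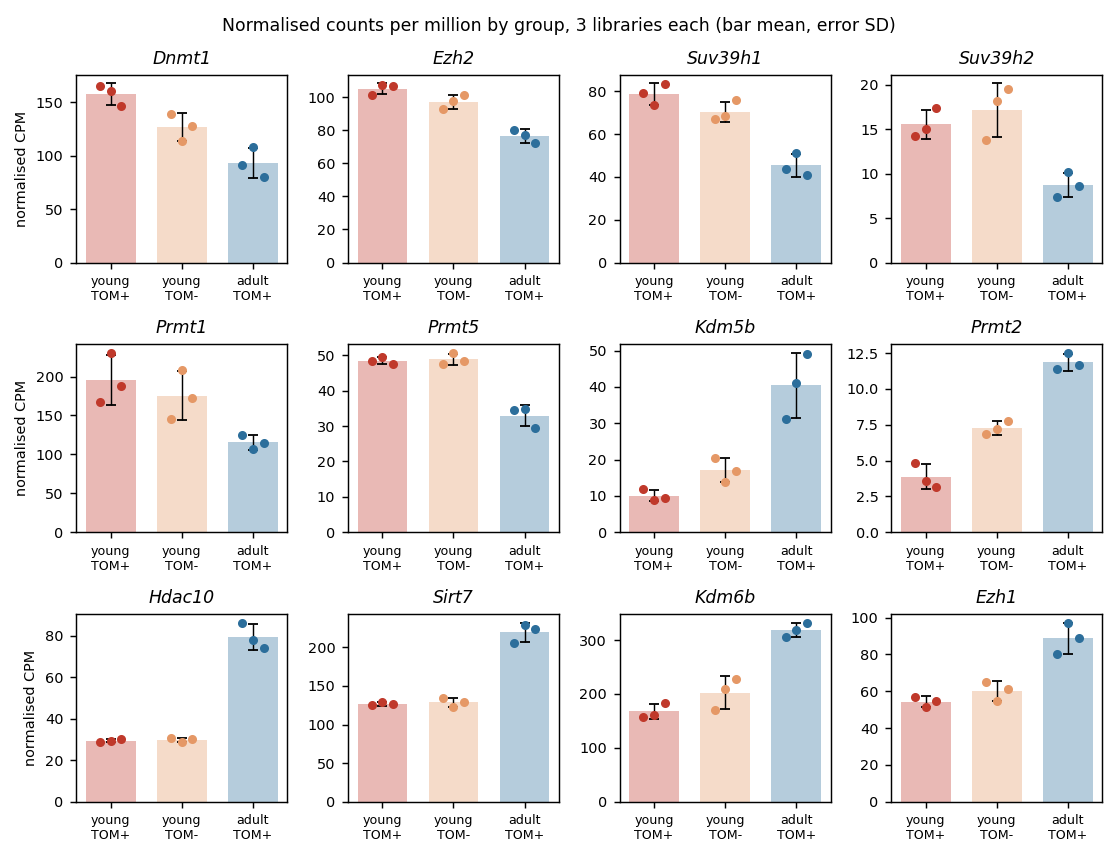
Normalised CPM of 12 members in the 3 groups, one panel per gene, with each library as a point, the mean of 3 as a bar and the SD as error bar, on axes that start at 0. In the first 6 panels both young groups lie above the adults, and in the last 6 below them, and Dnmt1, Kdm5b, Prmt2 and, by a narrow margin, Ezh2 also separate the young groups.

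For the families that follow, a log2FC without further words is that of young minus adult TOM+ cDC2. Among the genes of DNA methylation, Dnmt1 copies methylation onto new DNA strands at replication, while Dnmt3a and Dnmt3b set it anew. Dnmt1 was at 165, 161 and 146 normalised CPM in young TOM+ cDC2, 139, 113 and 128 in young TOM- DC2 and 90.8, 108 and 79.7 in adults. It was higher in young TOM+ cDC2 than in adults (log2FC 0.76 ± 0.12 SE, padj = 0.000248) and higher in young TOM- DC2 than in adults (0.45 ± 0.12 SE, padj = 0.00928). Dnmt3b, at a much lower level, was at 7.76, 9.76 and 11 normalised CPM in young TOM+ cDC2, 8.33, 7.27 and 8.13 in young TOM- DC2 and 6.51, 4.98 and 5.71 in adults, and rose in young TOM+ cDC2 (log2FC 0.73 ± 0.17 SE, padj = 0.00486). Dnmt3a did not pass in any comparison: it was at 240.4, 176 and 197 normalised CPM in young TOM+ cDC2, 259, 183 and 206 in young TOM- DC2 and 196, 191 and 176 in adults, with a log2FC of 0.13 ± 0.14 (SE, padj = 0.494) across age in TOM+ cells. Dnmt3l, a cofactor without catalytic activity, had at most 5 counts in any library.

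Of the Tet genes, Tet2 was the highest by TPM. Its normalised CPM was 163, 91.2 and 108 in young TOM+ cDC2, 171, 130.4 and 127 in young TOM- DC2 and 157, 181 and 196 in adults, and library 81 was the highest in each young group. Young TOM+ cDC2 were lower than adults (log2FC -0.56 ± 0.19 SE, padj = 0.0315), but significance was lost with library totals, in limma on TPM, and without young TOM+ library 91 or 92 or adult library 92 or 95 (padj = 0.0782 to 0.119). Tet3, at 83.5, 64.3 and 70.9 normalised CPM in young TOM+ cDC2, 87.3, 73.6 and 72.5 in young TOM- DC2 and 70.2, 62.9 and 59.5 in adults, did not pass, with a log2FC of 0.19 ± 0.12 (SE, padj = 0.224). In the Dnmt and Tet family as a whole, 2 of 8 tested members were higher in young TOM+ cDC2 than in adults and 1 was lower. Of all tested genes, 21% and 19.5% passed in these directions.

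The Polycomb methyltransferases Ezh1 and Ezh2, which can replace each other in PRC2 and methylate H3K27, moved in opposite directions. Ezh2 was at 101, 107 and 107 normalised CPM in young TOM+ cDC2, 92.8, 97.5 and 101 in young TOM- DC2 and 80.1, 77.1 and 72.2 in adults. Its log2FC was 0.46 ± 0.08 (SE, padj = 0.000596). Ezh1 was at 57, 51.2 and 54.8 normalised CPM in young TOM+ cDC2, 64.8, 54.4 and 61.1 in young TOM- DC2 and 80.1, 97.2 and 88.8 in adults. Its log2FC was -0.71 ± 0.10 (SE, padj = 0.000133). Young and adult libraries did not overlap for either gene. For young TOM- DC2 against adults the log2FC was 0.35 ± 0.08 (SE, padj = 0.00443) for Ezh2 and -0.56 ± 0.10 (SE, padj = 0.000819) for Ezh1.

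Suv39h1 and Suv39h2 place H3K9 trimethylation in constitutive heterochromatin. Suv39h1 was at 79.1, 73.6 and 83.5 normalised CPM in young TOM+ cDC2, 67.2, 68.5 and 75.9 in young TOM- DC2 and 43.9, 51.4 and 41 in adults, with a log2FC of 0.80 ± 0.10 (SE, padj = 6.67e-05). Suv39h2 was at 14.2, 15 and 17.4 normalised CPM in young TOM+ cDC2, 13.8, 18.2 and 19.5 in young TOM- DC2 and 7.37, 10.1 and 8.66 in adults. Its log2FC was 0.83 ± 0.17 (SE, padj = 0.00167). All young libraries lay above all adult libraries for both genes, and the log2FC for TOM- DC2 against adults was 0.64 ± 0.10 (SE, padj = 0.000423) and 0.98 ± 0.17 (SE, padj = 0.000642). Ehmt1 and Ehmt2, the partners that place H3K9 mono- and dimethylation in euchromatin, went the other way or did not pass. Ehmt2 was at 71.1, 77.3 and 70.6 normalised CPM in young TOM+ cDC2, 69.1, 60.6 and 72.3 in young TOM- DC2 and 107, 93.6 and 78.1 in adults and lower in young TOM+ cDC2 than in adults. Its log2FC was -0.34 ± 0.11 (SE, padj = 0.0301), with significance lost under library totals, in limma on TPM, and without young TOM+ library 81 or 92 or adult library 91 or 92 (padj = 0.0658 to 0.138). Ehmt1 was at 77.5, 80.3 and 78.9 normalised CPM in young TOM+ cDC2, 76.7, 64.8 and 78 in young TOM- DC2 and 85.3, 91 and 85.9 in adults, with a log2FC of -0.15 ± 0.09 (SE, padj = 0.2) in TOM+ cells. Against adults, Ehmt1 passed in young TOM- DC2 (-0.26 ± 0.09 SE, padj = 0.0379), with significance lost in 5 of 13 alternative fits and without TOM- library 91 or any adult library (padj = 0.0575 to 0.145).

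**Figure D4:**
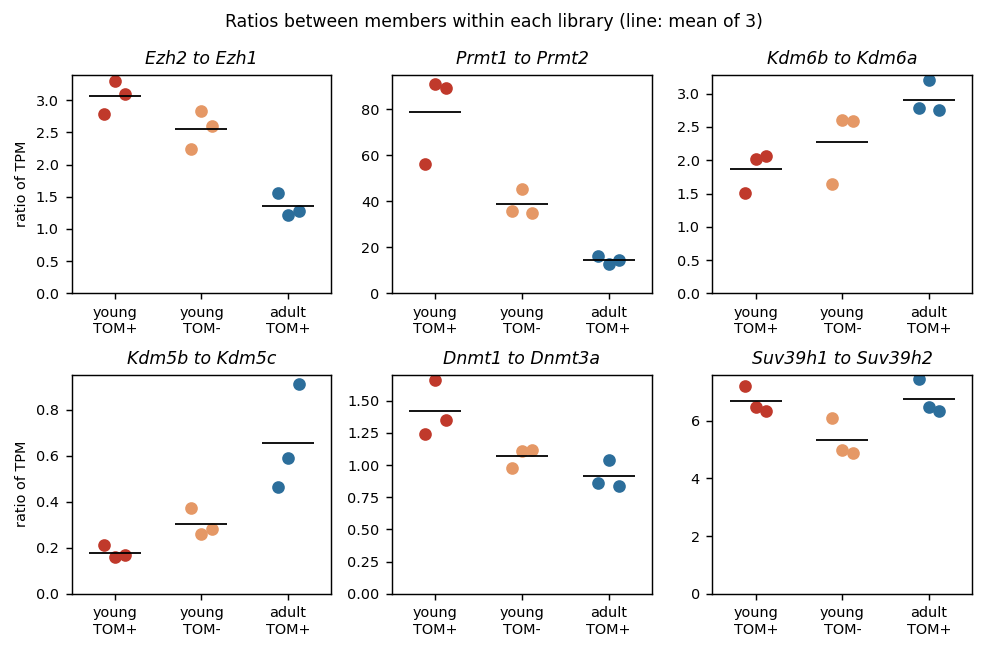
Ratios of TPM between pairs of members within each library, which do not depend on how libraries are scaled, with each library as a point and the mean of 3 as a line. Ezh2 to Ezh1 and Prmt1 to Prmt2 are higher in all 6 young libraries than in any adult library, Kdm6b to Kdm6a and Kdm5b to Kdm5c are lower in all young libraries than in any adult library, and Dnmt1 to Dnmt3a and Suv39h1 to Suv39h2 overlap between ages.

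Ratios of TPM within a library take scaling out of such pairs. Each pair below holds a member that passed across age in TOM+ cells, so that a ratio that separates ages is no separate support. Both members passed in opposite directions for Ezh2 and Ezh1 and for Prmt1 and Prmt2. Ezh2 exceeded Ezh1 in every library, by a ratio of 3.06 ± 0.257, 2.56 ± 0.296 and 1.35 ± 0.180 (mean ± SD, n = 3) in young TOM+ cDC2, young TOM- DC2 and adult TOM+ cDC2. The ratio of Prmt1 to Prmt2 was 79 ± 19.7, 38.7 ± 5.71 and 14.5 ± 1.67 (mean ± SD, n = 3) in young TOM+ cDC2, young TOM- DC2 and adult TOM+ cDC2. For Kdm6b to Kdm6a it was 1.87 ± 0.307, 2.28 ± 0.548 and 2.91 ± 0.252 (mean ± SD, n = 3) in young TOM+ cDC2, young TOM- DC2 and adult TOM+ cDC2. Young and adult libraries did not overlap for these 3 ratios, nor for Kdm5b to Kdm5c or Tet2 to Tet3. The ratio of Suv39h1 to Suv39h2, by contrast, was 6.67 ± 0.472, 5.32 ± 0.680 and 6.76 ± 0.615 (mean ± SD, n = 3) in young TOM+ cDC2, young TOM- DC2 and adult TOM+ cDC2. Young and adult TOM+ cDC2 overlapped in this ratio, and young TOM- DC2 lay below both. Dnmt1 to Dnmt3a was 1.42 ± 0.217, 1.07 ± 0.0811 and 0.913 ± 0.111 (mean ± SD, n = 3) in young TOM+ cDC2, young TOM- DC2 and adult TOM+ cDC2, with overlap between young TOM- DC2 and adults. Young and adult libraries also overlapped for Ehmt2 to Ehmt1, Dnmt1 to Dnmt3b, Hdac4 to Hdac9 and Kdm5d to Kdm5c. The share of other gene pairs that separate ages was not counted.

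The Kmt2 genes encode the large methyltransferases of H3K4 in COMPASS-type complexes, save for Kmt2e, whose product lacks such activity on its own as far as is known. Kmt2e was at 166, 162 and 175 normalised CPM in young TOM+ cDC2, 193, 190.2 and 199.9 in young TOM- DC2 and 238, 238 and 300.4 in adults, without overlap between the 3 groups (log2FC in TOM+ cells -0.62 ± 0.10 SE, padj = 0.000296). Kmt2d was at 193, 148 and 144 normalised CPM in young TOM+ cDC2, 199, 166 and 175 in young TOM- DC2 and 228, 233 and 219 in adults. Its log2FC was -0.49 ± 0.11 (SE, padj = 0.00445), with significance lost under library totals and in limma on TPM. Kmt2c and Kmt2a also passed, with log2FC of -0.68 and -0.44 (padj = 0.0179 and 0.0342), and Kmt2b did not (log2FC 0.03, padj = 0.865). Young library 81 was the highest of its group for Kmt2a, Kmt2c and Kmt2d in both young groups. With library totals and in limma on TPM, Kmt2e alone of the 4 kept its significance. The significance of Kmt2c was lost without young TOM+ library 91 or 92 or adult library 92 or 95 (padj = 0.0557 to 0.0683), and that of Kmt2a without young TOM+ library 91 or 92 or adult library 91 or 95 (padj = 0.0797 to 0.133).

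Of 11 Setd genes, 1 was higher in young TOM+ cDC2 than in adults and 2 were lower, beside 21% and 19.5% of all tested genes. Setd8, which encodes the H4K20 methyltransferase needed in S phase and mitosis, was at 80.6, 88.8 and 83.8 normalised CPM in young TOM+ cDC2, 72.8, 79.4 and 80.2 in young TOM- DC2 and 63, 67.9 and 51.9 in adults. Its log2FC was 0.47 ± 0.10 (SE, padj = 0.00293). Setd7, whose product methylates H3K4 and non-histone proteins, was at 13.3, 10.5 and 11.5 normalised CPM in young TOM+ cDC2, 15.9, 15.9 and 10.1 in young TOM- DC2 and 25, 20.4 and 22.3 in adults. Its log2FC was -0.94 ± 0.18 (SE, padj = 0.00109). The H3K9 methyltransferase gene Setdb2 passed narrowly (log2FC -0.27 ± 0.10 SE, padj = 0.0479) and lost significance in 6 of 13 alternative fits and without any 1 of the 3 young TOM+ libraries or adult library 91 or 95 (padj = 0.0611 to 0.187). Setd2, which places H3K36 trimethylation, was at 124, 88.9 and 87.8 normalised CPM in young TOM+ cDC2, 132, 105 and 96.7 in young TOM- DC2 and 112, 94.5 and 120.0 in adults and did not pass (log2FC -0.12 ± 0.15 SE, padj = 0.565).

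Arginine methyltransferases were split: Prmt1, Prmt5 and Prmt7 rose in young TOM+ cDC2, and Prmt2 fell. Prmt1, which carries out most asymmetric arginine dimethylation, was at 168, 230.3 and 188 normalised CPM in young TOM+ cDC2, 145, 208 and 173 in young TOM- DC2 and 125, 106 and 115 in adults. Its log2FC was 0.76 ± 0.14 (SE, padj = 0.00103). Prmt5, the main enzyme of symmetric dimethylation, was at 48.5, 49.4 and 47.6 normalised CPM in young TOM+ cDC2, 47.4, 50.6 and 48.5 in young TOM- DC2 and 34.5, 34.9 and 29.5 in adults. Its log2FC was 0.56 ± 0.09 (SE, padj = 0.000393). Values of both young groups were almost the same for Prmt5, with a log2FC between them of -0.01 ± 0.09 (SE, padj = 0.997). Prmt7, which monomethylates arginines, was at 40.4, 37.7 and 39.7 normalised CPM in young TOM+ cDC2, 32, 34.7 and 33.4 in young TOM- DC2 and 24.8, 28.7 and 24.1 in adults. Its log2FC was 0.60 ± 0.10 (SE, padj = 0.000341). Of the others, Prmt6 and Prmt10 did not pass, and Prmt3 passed only with some settings, library totals among them.

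The Kdm family, the largest with 18 members, had 1 member higher in young TOM+ cDC2 and 9 lower, beside 21% and 19.5% of all tested genes. Its median log2FC was -0.33, beside 0.05 over all tested genes. With library totals 2 were higher and 7 lower, beside 33.1% and 12.6% of all tested genes. Next to Kdm5b, the smallest padj belonged to Kdm6b, an inducible demethylase of H3K27. Kdm6b was at 158, 161 and 184 normalised CPM in young TOM+ cDC2, 169, 210.1 and 228 in young TOM- DC2 and 306, 318 and 333 in adults (log2FC -0.93 ± 0.11 SE, padj = 3.95e-05 in TOM+ cells and -0.65 ± 0.11 SE, padj = 0.000599 for TOM- DC2). Its X-linked relative Kdm6a was at 76.8, 61.5 and 68 normalised CPM in young TOM+ cDC2, 76.9, 60.8 and 67.4 in young TOM- DC2 and 83.4, 75.1 and 91.2 in adults and did not pass in TOM+ cells (log2FC -0.28 ± 0.11 SE, padj = 0.0744). The other lower members were the H3K9 demethylases Kdm3a (log2FC -0.64), Kdm3b (-0.49), Kdm4c (-0.38) and Kdm4d, the H3K4 demethylase Kdm1b (-0.73), Kdm2b (-0.69), which is also part of a Polycomb complex, and the Y-linked H3K4 demethylase Kdm5d. The significance of Kdm4c was lost with library totals and in limma on TPM, and that of Kdm2b was lost in limma on TPM.

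Kdm5d was at 23.8, 19.7 and 21.2 normalised CPM in young TOM+ cDC2, 23.6, 24 and 21 in young TOM- DC2 and 26.7, 36 and 32.6 in adults. Its log2FC was -0.56 ± 0.13 (SE, padj = 0.00382), and significance was lost in limma on TPM. The other 3 Y-linked genes read also passed in this direction, with log2FC of -1.06 for Ddx3y, -0.63 for Uty and -0.41 for Eif2s3y, and their part in the Kdm5d result was not tested. The X-linked Kdm5c was at 101, 101 and 104 normalised CPM in young TOM+ cDC2, 97.2, 94.6 and 108 in young TOM- DC2 and 121, 124 and 97.6 in adults and did not pass (log2FC -0.16 ± 0.10 SE, padj = 0.222). The single Kdm gene higher in young TOM+ cDC2 was Kdm8 (log2FC 0.76 ± 0.25 SE, padj = 0.0271), at 7.91, 9.22 and 9.03 against 3.56, 7.87 and 4.17 normalised CPM in adults, with significance lost without young TOM+ library 91 or 92 or adult library 91 or 95 (padj = 0.0719 to 0.107). The H3K4 demethylase Kdm1a, at 43.9 TPM over the 9 libraries, did not pass (log2FC -0.17 ± 0.08 SE, padj = 0.1).

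Among the class I deacetylases, which work in the Sin3, NuRD, CoREST and NCoR complexes, Hdac2 and Hdac3 rose in young TOM+ cDC2. Hdac2 was at 122, 131 and 117 normalised CPM in young TOM+ cDC2, 117, 117 and 102 in young TOM- DC2 and 104, 100.3 and 84.7 in adults. Its log2FC was 0.36 ± 0.10 (SE, padj = 0.0108). Hdac3 was at 107, 107 and 112 normalised CPM in young TOM+ cDC2, 96.1, 107 and 97.4 in young TOM- DC2 and 76.1, 73.9 and 89 in adults. Its log2FC was 0.45 ± 0.09 (SE, padj = 0.00179). Hdac1 was at 49, 51.7 and 47.2 normalised CPM in young TOM+ cDC2, 52.8, 53.1 and 54.6 in young TOM- DC2 and 41.4, 45.3 and 45.7 in adults by STAR's counts (log2FC 0.16 ± 0.08 SE, padj = 0.147), and passed for young TOM- DC2 against adults (0.28 ± 0.08 SE, padj = 0.0198), with significance lost when only both groups compared were fitted, without both libraries numbered 81, and without TOM- library 92 or adult library 91 (padj = 0.085 and 0.0737). The cytoplasmic tubulin deacetylase gene Hdac6 was higher in young TOM+ cDC2 than in adults. Its log2FC was 0.45 ± 0.11 (SE, padj = 0.00476).

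Of the class IIa deacetylases, which shuttle between nucleus and cytoplasm, none passed as higher in young TOM+ cDC2 with TMM, although Hdac4 did with library totals. Hdac9 was at 27.2, 22.7 and 25.3 normalised CPM in young TOM+ cDC2, 34.5, 26.8 and 35.9 in young TOM- DC2 and 48, 34.1 and 51.6 in adults. Its log2FC was -0.83 ± 0.16 (SE, padj = 0.00119). For TOM- DC2 against adults it passed (-0.46 ± 0.16 SE, padj = 0.0358) but lost significance without TOM- library 91 or adult library 91 or 95 (padj = 0.112 to 0.144), with library totals and in limma on TPM. Hdac7 was at 14, 16 and 13.3 normalised CPM in young TOM+ cDC2, 15.4, 17.5 and 16.5 in young TOM- DC2 and 23.9, 17.2 and 16.9 in adults. Its log2FC was -0.42 ± 0.15 (SE, padj = 0.0362), with significance lost in 5 of 13 alternative fits, without both libraries numbered 81 among them, and without young TOM+ library 81 or 92 or adult library 91 (padj = 0.0829 to 0.169). Hdac4 was at 50.8, 44.1 and 47.6 normalised CPM in young TOM+ cDC2, 53.8, 51.8 and 50.2 in young TOM- DC2 and 41.7, 51.4 and 40.9 in adults (log2FC 0.09 ± 0.10 SE, padj = 0.525). Hdac5 was at 49.1, 52.5 and 41 normalised CPM in young TOM+ cDC2, 41.3, 36 and 40.1 in young TOM- DC2 and 49.4, 56.9 and 35.7 in adults (log2FC 0.01 ± 0.15 SE, padj = 0.969). Neither of them passed with TMM.

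Sirtuins are deacylases that depend on NAD+. Sirt7, which acts in the nucleolus on transcription of ribosomal RNA genes, was at 125, 129 and 126 normalised CPM in young TOM+ cDC2, 135, 122 and 129 in young TOM- DC2 and 206, 229 and 224 in adults. Both young groups overlapped and lay below all adult libraries, with log2FC of -0.80 ± 0.08 (SE, padj = 9.16e-06) in TOM+ cells and -0.77 ± 0.08 (SE, padj = 1.49e-05) for TOM- DC2. Sirt1, a nuclear deacetylase, was at 42.7, 50.8 and 49.8 normalised CPM in young TOM+ cDC2, 39.7, 49.7 and 49 in young TOM- DC2 and 38.1, 36.3 and 41.2 in adults (log2FC 0.31 ± 0.11 SE, padj = 0.044), and its significance was lost in 5 of 13 alternative fits, DESeq2 among them, and without young TOM+ library 91 or 92 or adult library 91 or 92 (padj = 0.102 to 0.156). The mitochondrial Sirt3, Sirt4 and Sirt5, and Sirt2 and Sirt6, did not pass across age in TOM+ cells.

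Origin was compared at 8 days of age, between young TOM+ cDC2 and young TOM- DC2. Of 73 members, 0 were higher and 1 lower in young TOM+ cDC2, where 0.125% and 1.47% of all tested genes passed in these directions. None was called, beside 1.18% of all genes. An unadjusted p under 0.05 in edgeR's test was reached by 11 members (3 of them higher), and the share of all genes under this threshold was not counted. DESeq2 passed 2 members, both lower. The member was Prmt2 (log2FC -0.91 ± 0.17 SE, padj = 0.0169), whose values stand above. Significance was lost when only both groups compared were fitted and without TOM+ library 91 or 92 (padj = 0.0902 and 0.0986) or TOM- library 91 or 92 (padj = 0.0552 and 0.0998), while without both libraries numbered 81 the log2FC was -1.16 (padj = 0.00923). Kdm5b followed with a log2FC of -0.75 ± 0.19 (SE, padj = 0.0876), which did not pass although the groups did not overlap.

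Young libraries of the same number deviated together, so that differences were also taken within numbers. With the replicate number as a block, 1 member was higher and 8 were lower in young TOM+ cDC2, where 2.23% and 4.34% of all genes passed. The block was fitted over all 9 libraries, so that adult libraries 91 and 92 shared its effects although they did not pair with the young ones. The log2FC, SE and padj of the block come from this joint fit. Dnmt1 was the higher gene (log2FC 0.32 ± 0.07 SE, padj = 0.01), with log2 ratios of 0.25, 0.51 and 0.19 in the pairs 81, 91 and 92. Kdm5b was lower, with log2 ratios of -0.78, -0.63 and -0.84 (log2FC -0.76 ± 0.10 SE, padj = 0.000183), and Prmt2 had ratios of -0.50, -1.01 and -1.29 (log2FC -0.92 ± 0.17 SE, padj = 0.00293). For all 3 genes, the mean normalised CPM of young TOM- DC2 lay between those of young TOM+ cDC2 and adults.

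The other members that were lower with the block changed less, apart from Tet1. Tet1 had log2 ratios of -0.45, -1.28 and -0.58 in the 3 pairs (log2FC -0.70 ± 0.17 SE, padj = 0.018) and Tet2 of -0.07, -0.52 and -0.23 (log2FC -0.27 ± 0.07 SE, padj = 0.034). Kdm6b had ratios of -0.10, -0.38 and -0.31 (log2FC -0.26 ± 0.06 SE, padj = 0.0138), and Kmt2e of -0.22, -0.23 and -0.19 (log2FC -0.21 ± 0.05 SE, padj = 0.0206). Setd5, a Setd gene of debated catalytic activity, was at 119.8, 87.6 and 118 normalised CPM in young TOM+ cDC2 and 137, 112 and 154 in young TOM- DC2 (log2FC -0.31 ± 0.07 SE, padj = 0.0185). Sirt2, whose product deacetylates tubulin and histone H4, was at 68, 59.5 and 62.2 normalised CPM in young TOM+ cDC2 and 76.5, 75.8 and 73.6 in young TOM- DC2 (log2FC -0.25 ± 0.06 SE, padj = 0.0212). Each of these 8 members was lower in TOM+ cells in all 3 pairs.

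**Figure D5:**
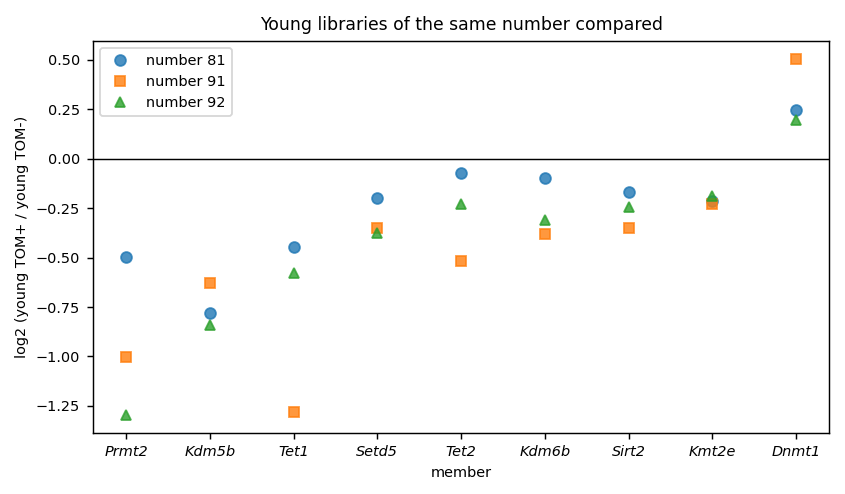
Log2 ratios of young TOM+ cDC2 to young TOM- DC2 in normalised CPM, taken between libraries of the same number (81, 91 and 92), for the 9 members that passed with the replicate block. All 3 points lie below 0 for 8 members and above 0 for Dnmt1, and Kmt2e has the narrowest spread.

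Markers of cDC2 and of other cells differed between groups too. Of 13 cDC2 markers, 3 were higher and 9 lower in young TOM+ cDC2 than in adults, Esam at 14.4 to 27.0 against 72.6 to 90.7 TPM and Clec10a at 33.0 to 48.6 against 9.22 to 13.9 TPM, and their part in the differences of the members was not tested. Of 10 macrophage markers, none passed without the replicate block (median log2FC -0.69), 9 were lower in young TOM+ cDC2 with the block, and their sum was 186 to 234 TPM in young TOM+ cDC2, 304 to 365 TPM in young TOM- DC2 and 105 to 160 TPM in adults, with none of the markers at 0 throughout a group. B cell markers summed to 62.4 to 72.4 TPM in young TOM+ cDC2 and 81.7 to 95.6 in young TOM- DC2, and 3 of 9 tested were lower in young TOM+ cDC2, with Pax5 at 0 in all 3 TOM- libraries. Among markers of group 3 innate lymphoid cells, Gata3 and Il1r1 were also lower (median log2FC of the list -1.18), with Il22 and Il17a at 0 in both young groups. The part of these cells in the differences of Prmt2, Kdm5b and the other members was not tested. Erythroid markers were at 67.8 to 133 TPM in young TOM+ cDC2, and Hba-a2, Hbb-bs, Slc4a1 and Epor were at 0 in all adult libraries. The other marker lists, as summed TPM over all 9 libraries, ranged from 22.0 to 39.7 for T cells, 306 to 359 for cDC1, 153 to 203 for plasmacytoid dendritic cells and 412 to 525 for monocytes. Neutrophil markers were at 38.1 TPM in young TOM- DC2 library 81 and at most at 1.78 TPM elsewhere, and the markers of innate lymphoid cells, several of which dendritic cells also express, were at 1157 to 1318 TPM in young and 2073 to 2261 TPM in adult libraries.

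Genes of cell division moved with age. Of 20 proliferation genes, 19 passed as higher in young TOM+ cDC2 than in adults and 0 as lower (median log2FC 1.35), with Mcm3 and Mcm7 at log2FC of 1.07 and 1.09. Their summed TPM was 2786 to 2922 in young TOM+ cDC2, 2547 to 2642 in young TOM- DC2 and 1124 to 1369 in adults. The mean normalised CPM of Dnmt1, Ezh2 and Suv39h1 had the same order of groups. Other members higher in young did not: Suv39h2 (15.6, 17.1 and 8.73) and, by little, Prmt5 (48.5, 48.8 and 33.0) were highest in young TOM- DC2. Of 14 immediate early genes, 9 were lower in young TOM+ cDC2 than in adults (median log2FC -0.80), Btg2 at -1.19 and Zfp36 at -0.83 among them, and they summed to 15124 to 20458 TPM, 14803 to 20725 TPM and 23781 to 32103 TPM in the same order of groups. This is the direction of Kdm6b. The part of cell division, of early response genes or of reads outside genes in the differences of the members was not tested.

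Genes that work with the members were read from lists of known subunits and partners. Of all tested genes, 21% passed as higher in young TOM+ cDC2 than in adults and 19.5% as lower. With library totals these shares were 33.1% and 12.6%. The lists of this paragraph and the next were not tested against these shares. Of 30 Polycomb partners, 10 were higher in young TOM+ cDC2 than in adults and 7 lower (14 and 6 with library totals). The 2 with the smallest padj were Phc1, a PRC1 subunit, with a log2FC of -2.32 ± 0.10 (SE, padj = 3.84e-08), and Rbbp7, a histone chaperone of PRC2 and Hdac complexes, with 0.88 ± 0.08 (SE, padj = 3.99e-06). Phc1 was also the only one of these partners lower in young TOM+ cDC2 than in young TOM- DC2 (padj = 0.00146). Of 12 COMPASS subunits, the partners of Kmt2 enzymes, 5 were higher and 1 lower (8 and 0 with library totals), Wdr5 at 0.56 and Rbbp5 at 0.40.

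Of 29 HDAC corepressor subunits, 6 were higher and 5 lower in young TOM+ cDC2 than in adults (11 and 4 with library totals), with the smallest padj for the NuRD helicase Chd3 (log2FC -1.53) and for Phf21a of the CoREST complex (-1.16). Of 17 histone acetyltransferase genes, 3 were higher and 7 lower (5 and 5 with library totals), Naa50 at 0.79 and Ncoa3 at -0.68. Of 23 other genes for histone methyltransferases and demethylases, 4 were higher and 7 lower (5 and 4 with library totals), with Smyd2 at 1.46 and Jmjd1c at -1.06. Of 21 DNA methylation partners and readers, 4 were higher and 6 lower (8 and 4 with library totals). Uhrf1, which brings Dnmt1 to hemimethylated DNA, had a log2FC of 1.40 ± 0.13 (SE, padj = 6.71e-06), and Gadd45g, an inducible gene linked to demethylation, one of -1.73 ± 0.31 (SE, padj = 0.000749). Of 18 genes of one-carbon metabolism, which supplies the methyl groups, 12 were higher in young TOM+ cDC2 and 0 lower (15 and 0 with library totals), with a median log2FC of 0.80, Shmt1 at 1.67 and Mthfd1l at 1.22.

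Promoter sequences of 63 of the 74 members, in 87 windows from 250 bases before to 50 bases after a start in RefSeq (GRCm38.p6), were searched for motifs on both strands. As E2F motif, the letters TTTCCCGC, TTTGGCGC, TTTCGCGC and TTTGCCGC were taken, the binding sequence of factors that drive genes of the S phase. At least one was found in 3 of 18 windows of the members higher in young TOM+ cDC2 than in adults (Ezh2, Suv39h1 and Dnmt1), in 0 of 30 of those lower, in 1 of 37 of those that did not pass (Sirt4), in neither window of the untested Prmt8, and in 2.27% of the 32851 windows of all genes. The CCAAT box (CCAAT) was in 11 of 18, 6 of 30 and 16 of 37 windows, and in 37.4% of all windows. The E-box (CACGTG) was in 2 of 18, 3 of 30 and 5 of 37 windows and in 7.15% of all, and the CHR element (TTTGAA) in 5 of 18, 3 of 30 and 2 of 37 and in 17.9% of all. Several windows belong to the same gene and overlap, and a match is only a match of letters. The 30 bases around the match are shown for the 3 young-high genes that have one, on the minus strand of each chromosome and 5′ to 3′ along the gene, with E2F matches and CCAAT boxes (or their reverse complements) in capitals, at chr6:47595011-47595040, chrX:8074407-8074436 and chr9:20952831-20952860. The Ezh2 match begins 4 bases into the transcript, the Suv39h1 match 64 bases before a start, and the Dnmt1 match 219 bases before one of its 3 starts. A second Dnmt1 match, 34 bases after the same start, is not shown.
Ezh2: ttgggttgctgcgTTTGGCGCtcggtccgg
Suv39h1: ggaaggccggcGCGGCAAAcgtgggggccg
Dnmt1: cCCAATTGGtttccgcgcGCGCGAAAaagc

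For comparison, the 250 bases before the start are shown for Prmt1 (chr7:44986421-44986670, minus strand), the member with the highest TPM, and for the adult-high genes Kdm5b (chr1:134559928-134560177, plus strand) and Prmt2 (chr10:76237866-76238115, minus strand). Capitals mark the same motifs: Prmt1 holds 3 CCAAT boxes, Prmt2 1 and Kdm5b none, and none of the 3 holds an E2F match.
Prmt1: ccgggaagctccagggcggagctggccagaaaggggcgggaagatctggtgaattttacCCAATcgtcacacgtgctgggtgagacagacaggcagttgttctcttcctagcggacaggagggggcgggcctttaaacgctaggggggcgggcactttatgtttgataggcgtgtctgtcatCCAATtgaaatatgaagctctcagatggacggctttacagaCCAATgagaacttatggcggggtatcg
Kdm5b: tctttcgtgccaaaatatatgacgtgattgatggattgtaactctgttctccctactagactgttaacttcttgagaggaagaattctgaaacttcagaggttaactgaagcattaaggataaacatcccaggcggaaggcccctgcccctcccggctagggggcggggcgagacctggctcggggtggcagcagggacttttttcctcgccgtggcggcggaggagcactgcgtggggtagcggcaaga
Prmt2: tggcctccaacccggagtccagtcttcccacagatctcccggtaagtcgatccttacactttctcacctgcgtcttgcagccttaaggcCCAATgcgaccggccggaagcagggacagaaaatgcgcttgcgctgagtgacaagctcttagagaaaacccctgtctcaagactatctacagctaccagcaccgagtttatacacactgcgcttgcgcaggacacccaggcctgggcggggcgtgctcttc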

How the data were processed

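Bulk RNA-seq was made by the authors from sorted spleen cells with SMART-seq v4 and sequenced single-end. Per the labels and the study's methods, reads were aligned to mm10 with STAR, whose deposited counts per gene (the column without strand) were used as main values, and RSEM was run by the authors to give the deposited expected counts and TPM. The study pooled spleens of young mice and tested with DESeq2. Versions of STAR and RSEM are not given in the sources used here, and the library kit does not keep strand. Reads on no gene (multimapping, ambiguous, outside genes or unmapped) made up 26.1% to 31.6% of reads per library and were left out of library sizes.

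The members, and the lists of partners and markers, were chosen with earlier results of these data known. Counts of 14452 genes with a mean of at least 1 were fitted over all 9 libraries with edgeR 4.0.16 (quasi-likelihood, TMM) in R 4.3.3, with 1 coefficient per group, and p-values were adjusted after Benjamini-Hochberg over all genes of a comparison. The fit was checked on simulated counts. Alternatives were DESeq2 1.42.0, alone and with apeglm 1.24.0, other scalings and filters, RSEM's expected counts rounded to whole numbers, limma 3.58.1 on log2(TPM + 1) and log2(TPM + 0.1), only the groups compared, a replicate block, and each library left out in turn. Leaving out both young libraries numbered 81 was added after seeing the data.

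The block rests on the library numbers. Deviations from the group mean of both young groups correlated within a number (0.621, 0.333 and 0.426 for 81, 91 and 92, over 11818 genes), and this was taken as pairing. Between different numbers the correlation was 0.204 for TOM+ 92 with TOM- 91 and 0.0487 for TOM+ 91 with TOM- 92. It was -0.477 to -0.293 where either library was numbered 81. Adult libraries did not pair with young ones (0.0121 to 0.0806 for shared numbers). The study calls the libraries biological replicates. The labels do not say whether those of a group came from separate animals, so that p-values measure only the spread between these libraries. No libraries of a group held the same values, the closest pair differing by a chi-square of 8.74 per gene.

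The genes named with values were those called in any comparison, the 2 per family with the smallest padj between young and adult TOM+ cDC2 and the 1 between young groups (mean count of at least 50), the Ezh, Suv39h, Ehmt, Dnmt and Tet genes, Kdm5c, Kdm5d, Kdm6a, Kdm6b, Hdac4, Hdac5, Hdac7 and Hdac9, and the 5 with the highest TPM. Setd2, Kdm1a, Hdac6 and the others with values were added after their values were seen. From each list of partners at most 2 genes were named. In a reference annotation, exons of Setd1a, Hdac11, Prmt6, Kdm2b, Kmt2e, Sirt3, Suv39h1, Kdm1b, Prmt3, Prmt8, Suv39h2, Setdb1 and Prmt7 overlap other genes by more than 5% of their length. Where the annotation behind the counts holds the same overlaps, such reads are ambiguous without strand and not counted. Whether it holds them was not checked. Epop, Riox1, Adgre1, Ly6g and Ahsp were not analysed here.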

Additional observations from a re-analysis of the deposited data

How the results depend on the processing

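Of the 37 members that passed between young and adult TOM+ cDC2, 24 kept direction and significance in all 13 alternative fits and in the 6 fits without 1 library, 12 of them higher and 12 lower in young TOM+ cDC2. Of the 31 between young TOM- DC2 and adults 15 did so, and of the 1 between young groups none. The share of all passing genes that did so was not counted, so that these numbers cannot be set against all genes. No member reversed. Counts across age moved with scaling and with limma on TPM, which changes quantification and test as well: between young and adult TOM+ cDC2, the members lower in young numbered 23 as reported, 14 with library totals and 12 in limma on log2(TPM + 1) and on log2(TPM + 0.1). Between young TOM- DC2 and adults, higher members numbered 22 with library totals and 20 in both limma fits, against 12, and lower members 8 and 7, against 19, while the replicate block gave 29. Called members there numbered 1 in limma on log2(TPM + 1), against 3. Between young groups, the replicate block gave 1 higher and 8 lower. Lower members numbered 2 in DESeq2, with or without apeglm, and 2 without a filter, but 0 when only the 2 groups were fitted, and 1 (Prmt2) was called without both libraries numbered 81. Scaling left 0 and 1 there. The cause of these shifts was not tested. Shares of all genes that passed were not counted for DESeq2, limma, the unfiltered fit or the fits on fewer libraries. Counts of members from these fits are therefore not results about the members alone.

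Without 1 library at a time, members passing between young and adult TOM+ cDC2 ranged from 12 to 14 higher and from 16 to 23 lower, with 3 to 5 called. For young TOM- DC2 against adults the ranges were 10 to 13, 14 to 23 and 2 to 4. Between young groups they were 0 to 0, 0 to 1 and 0 to 1. The replicate block, whose pairing does not hold for adults, took padj over 0.05 for no member that had passed and turned no direction. It moved the log2FC of Tet1 between young TOM- DC2 and adults to 0.89, under 1. With it, 15 members were higher and 29 lower between young and adult TOM+ cDC2. With 3 libraries a group, differences in genes of few reads, such as Kdm4d and Dnmt3l, cannot be measured closely.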
